A study of Homo sapiens with 4 samples.

Results

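The regions described here are all 5326 genomic regions that the authors listed for HNF4A over IgG at low glucose in HCCLM3, an established human hepatocellular carcinoma cell line. They were taken as every row of the deposited low glucose table, so they are 5326 of the 5326 regions in the series. No measured value was used here to choose among them. Whether the authors chose the regions by the reads of these libraries is not given. The study asked which genes HNF4A targets at different glucose conditions. It holds 4 chromatin immunoprecipitation sequencing (ChIP-seq) libraries: HNF4A antibody and IgG, a nonspecific antibody that gives the background, each at low and at high glucose. Each group is 1 library, so none of the values below has a replicate check. The labels describe stable overexpression lines made with the lentiviral vector pCDH-CMV-MCS-EF1-puro, in which a CMV promoter drives the insert, but name neither the inserted gene nor which libraries came from such a line. They give no glucose concentrations, and the same culture text, which names a high glucose medium, stands for all 4 libraries, including those labelled low glucose.

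HNF4A is a nuclear receptor of the hepatocyte that binds DNA as a homodimer at direct repeats separated by a single base, and it is known as a regulator of genes for lipoproteins, coagulation factors, bile acid and drug metabolism and of other liver transcription factors. In a ChIP-seq experiment, reads pile up where the protein sits, but also where chromatin is open or where a repeated sequence collects reads in every library. The IgG library records that background, and the ratio of HNF4A to IgG is the measure used below. A read count shows occupancy and not expression, and the gene given for a region is the closest one in the authors' table, which does not show that it is regulated.

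Known HNF4A sites often hold CAAAGTCCA, CAAAGGTCA or CAAAGTTCA. The sequence under the hg19 regions was not used here, so these 9 letters were looked for, on either strand, in another place: the 300 bases around each RefSeq start of the closest gene, 250 before it and 50 after it, in GRCh38.p14. Whether a region lies on its gene's start window was not determined, because the builds differ. Of the 65 regions whose closest gene held a match, the 8 genes with the highest lower counting limits of the HNF4A over IgG ratio are shown, chosen after their values were seen, with the match in capitals and 25 bases on each side, 5′ to 3′ on the gene's strand.
AGMAT (chr1:15585058-15585116, minus strand): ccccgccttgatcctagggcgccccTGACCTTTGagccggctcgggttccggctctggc
C15orf41 (chr15:36594650-36594708, plus strand): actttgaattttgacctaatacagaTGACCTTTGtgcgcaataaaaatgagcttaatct
ST5 (chr11:8794869-8794927, minus strand): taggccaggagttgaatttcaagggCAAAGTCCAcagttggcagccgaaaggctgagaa
ERICH4 (chr19:41443004-41443062, plus strand): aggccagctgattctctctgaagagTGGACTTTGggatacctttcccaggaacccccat
SLCO2B1 (chr11:75159738-75159796, plus strand): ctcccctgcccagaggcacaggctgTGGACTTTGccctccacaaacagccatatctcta
KIAA1683 (chr19:18274546-18274604, minus strand): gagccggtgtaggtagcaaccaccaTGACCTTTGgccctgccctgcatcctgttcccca
OTOS (chr2:240140800-240140858, minus strand): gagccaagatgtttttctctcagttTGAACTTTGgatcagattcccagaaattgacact
GPR35 (chr2:240605370-240605428, plus strand): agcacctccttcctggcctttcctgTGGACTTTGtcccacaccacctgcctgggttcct

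In 7 of these 8 the capitals read TGGACTTTG, TGACCTTTG or TGAACTTTG, which are the same motifs on the opposite strand. SLCO2B1 encodes an organic anion transporter of the liver, and its region held 37 HNF4A and 7 IgG reads. AGMAT encodes agmatinase, an enzyme of polyamine supply, and its region held 25 and 2 reads. GPR35 encodes a G protein-coupled receptor of the gut, and its region held 71 and 22 reads. All 8 regions had ratios between 1.66 and 3.62 on the log2 scale, as the choice by their limits requires.

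Over all RefSeq start windows, 381 of 35116 (1.08%) held at least 1 of the motifs. A gene can have more than 1 start window, and 1.34% of RefSeq genes with a start window had a match. A closest gene with a start window was found for 3745 regions, and 65 of those (1.74%) had a match. Any window of the gene counted, so the share of genes, 1.34%, is the nearer background. It is not matched for windows per gene: 27305 genes shared the 35116 windows, whereas regions without a match averaged 1.49. The part of window number in the gap between 1.74% and 1.34% was not tested. TFEC alone was closest to 6 of the 65 regions with a match. Ordered by HNF4A over IgG ratio, 43 of the 1872 upper regions and 22 of the 1873 lower ones had a match. The share did not climb steadily: it was 4.01% (15 of 374) in the ninth of 10 equal classes and 1.33% (5 of 375) in the class of highest ratios. Regions with a match had a median log2 ratio of 1.26 against 0.94 for those without, with 33.6 against 32.7 HNF4A reads per kb and 14.8 against 16.6 IgG reads per kb. Regions with a match lay nearest to genes with more listed start windows, 2.11 against 1.49 on average per region, and with a lower median GC content, 58.9% against 64.7%; their part in the difference was not tested. This search and its division into upper and lower regions were chosen after the data were seen. A first look with exact symbols and the first listed start alone prompted it, and gave a larger contrast than the version reported. Counting each gene only once gave 43 upper and 13 lower matches, using only the first listed start gave 31 and 7, and using CAAAGTCCA alone gave 16 and 5.

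**Figure D1:**
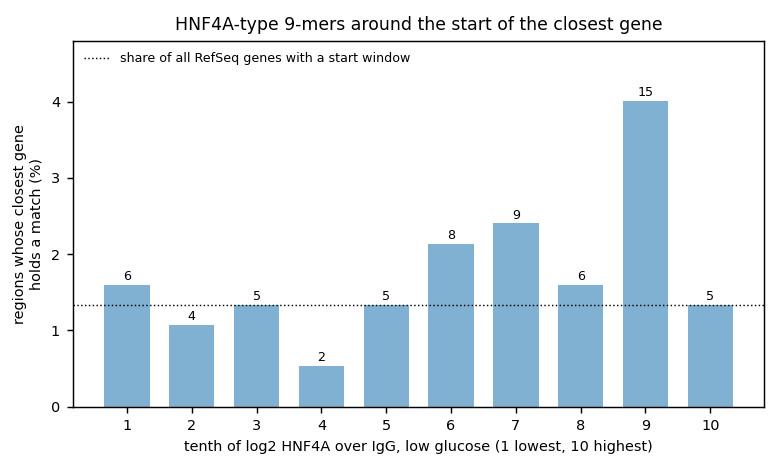
Share of regions whose closest gene has a HNF4A-type 9-letter match in a RefSeq start window (y axis, percent), for 10 equal classes of the low glucose log2 HNF4A over IgG ratio (x axis); the numbers above the bars are regions with a match. The dotted line is the share of all RefSeq genes with a match, 1.34%, and the ninth class, with 15 regions, is the tallest bar.

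At low glucose the 5326 regions together held 295460 HNF4A and 198683 IgG reads. These are the reads inside the listed regions, and no source used here gives the total depth of the libraries. The median region held 35 HNF4A and 18 IgG reads over 1030 bp, and lengths ran from 101 to 8704 bp. After scaling by relative library size, the median log2 ratio was 0.94, with quartiles of 0.47 and 1.51. HNF4A was at least 2-fold above IgG in 2494 regions (46.8%) and at least 4-fold above in 648 (12.2%). It was below IgG in 453 regions (8.51%) and at least 2-fold below in 26 (0.488%). An exact 95% interval for the ratio covers counting error only, because each group is 1 library. It may be too narrow even for that, since PCR copies are not independent molecules. The interval lay above equality in 2994 regions (56.2%) and below it in 38 (0.713%). In the authors' deposited table, 162 regions (3.04%) were above IgG at an unadjusted p under 0.05, and the lowest false discovery rate was 0.820, so no region passed an adjusted threshold there.

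**Figure D2:**
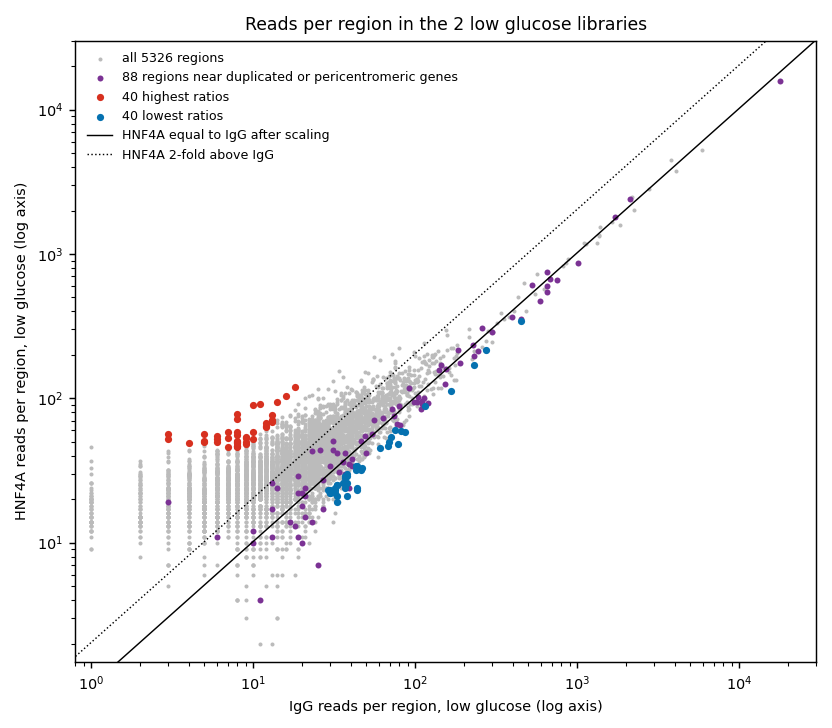
HNF4A reads (y axis) against IgG reads (x axis) per region in the 2 low glucose libraries, both on log axes, with all 5326 regions in grey. The 40 highest ratios, at 3 to 18 IgG reads, stand above the dotted 2-fold line, while regions near duplicated or pericentromeric genes, in purple, follow the solid line of equality up to 17783 IgG reads.

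The ratio was set beside the read density of each library. When regions were divided into 10 equal classes by IgG reads per kb, the median log2 ratio went from 2.56 in the lowest class to 0.04 in the highest. Across those classes, median IgG density rose from 5.10 to 46.3 reads per kb, whereas HNF4A density stayed between 28.7 and 37.4 reads per kb in the lower 9 classes and was 53.9 in the highest. Part of this relation is built in, since both densities are parts of the ratio. Across the 5326 regions, which share the same 2 libraries, Spearman's rho with the ratio was -0.82 for IgG density and 0.15 for HNF4A density, and Pearson's r was -0.13 and -0.06.

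Long regions had low ratios, and the shortest ones were split. By length, the median log2 ratio was 0.74 in the shortest class (101 to 606 bp), 1.35 and 1.37 in the next classes, and then declined to 0.55 in the longest (2042 to 8704 bp). The share of regions at least 2-fold above IgG was 66.2% in the third class and 16.9% in the longest. From the second to the ninth class HNF4A density was nearly level, between 31.3 and 33.5 reads per kb, while IgG density went from 11.7 to 20.2. The shortest class had the widest quartiles, -0.09 to 1.78, and 27.6% of its regions lay below IgG. Within it, 84 regions were nearest to genes of duplicated or pericentromeric sequence or lay on unplaced contigs, with a median of -0.14. The other 449 had a median of 1.07. The list of duplicated and pericentromeric genes was chosen with earlier results of these data known, so this split is no independent result. Regions below IgG numbered 53 of the 84 (63.1%) and 94 of the 449 (20.9%), against 8.51% of all regions. Depth widened the uncertainty at the short end: the median width of the counting interval was 2.74 log2 units in the shortest class and 0.97 in the longest.

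**Figure D3:**
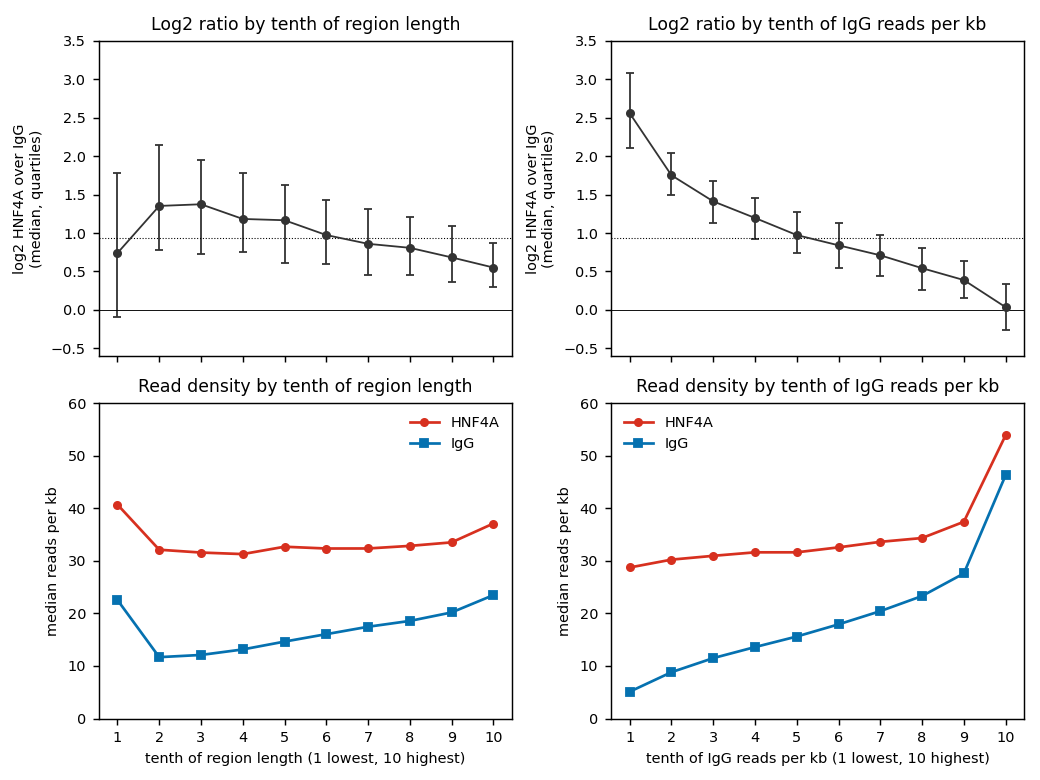
Upper panels: median log2 HNF4A over IgG ratio with quartiles (y axis) for 10 equal classes of region length (left) and of IgG reads per kb (right); the dotted line is the median of all regions, 0.94. Lower panels: median HNF4A and IgG reads per kb in the same classes, in which the IgG line rises from 5.10 to 46.3 along its own classes while the HNF4A line is nearly flat over the lower 9.

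The high end was described from the 40 regions of highest ratio, 1 per gene, among the 2664 regions at or above the median mean level. Their log2 ratios ran from 2.35 to 4.22, with 46 to 120 HNF4A reads, 3 to 18 IgG reads and lengths of 620 to 1754 bp. The highest belonged to ACSL5, an acyl-CoA synthetase that activates fatty acids (chr10:114139223-114140408 in hg19), with 57 HNF4A reads against 3 for IgG (log2 ratio 4.22, 95% counting interval 2.60 to 6.54).

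In ranks 11 to 40, SULT2B1, a sulfotransferase that acts on cholesterol, had the most reads of the 40, 120 against 18, and a log2 ratio of 2.71 (1.99 to 3.51). ACOT13, a thioesterase that cleaves acyl-CoA, held 70 and 13 reads (2.40). BLVRB, the biliverdin reductase of haem breakdown, held 54 and 9 reads, and PAOX, a polyamine oxidase, held 58 and 8. CYP2B7P, a pseudogene of the cytochrome P450 family of drug-metabolising enzymes, held 69 and 13, although reads of a pseudogene may be shared with its near-identical relatives.

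KDM6B, a histone demethylase that removes a repressive methyl mark, held 103 HNF4A and 16 IgG reads (log2 ratio 2.66, 1.89 to 3.52). SUN1, a protein of the inner nuclear membrane, held 95 and 14. COPS8, a subunit of the COP9 signalosome, held 91 and 11 and had one of the highest lower limits, 2.12. POLRMT, the RNA polymerase of mitochondria, held 53 and 9. The zinc finger factors SP7, known from bone formation, and SP6 held 46 and 8, and 52 and 10.

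SHH, a hedgehog ligand, held 52 HNF4A and 6 IgG reads in the shortest of the 40 regions, 620 bp (3.09, 1.87 to 4.60). The potassium channel genes KCNMB4 and KCNK9 held 58 and 7, and 49 and 8. A second region nearest to KCNK9, outside the 40, held 13 and 11 (0.21, -1.06 to 1.52). CALM2, which encodes calmodulin, held 53 and 7. The vesicle GTPases RAB32 and ARF4 held 51 and 8, and 63 and 12. CALD1 and TMSB10, which encode actin-binding proteins, held 46 and 7, and 50 and 9. CD163, a scavenger receptor known from macrophages, held 56 and 8, and LGALS9, a galectin, 58 and 10. All 40 had intervals wholly above 2-fold, which selection from the top of the list makes likely.

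Ordering all 5326 regions by the lower limit of the interval brought in regions with fewer reads. FOXN3, a forkhead repressor, came first with 46 HNF4A reads against 1 listed for IgG (log2 ratio 5.50, 2.95 to 10.83). No listed value lies below 1 read, so an IgG of 1 may stand for none. SEC24D, a coat protein of vesicles leaving the endoplasmic reticulum, followed with 37 and 1. SUSD2 held 37 and 2, SERPINE2, a secreted protease inhibitor, 34 and 2, and CPT1A, the enzyme that admits long-chain fatty acids to mitochondria for oxidation, 31 and 2. Of the 30 highest by this limit, 8 had IgG listed at 1 read and 18 at 3 or fewer, against 58 and 232 of all regions.

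The low end was described in the same way. The 40 lowest ratios, 1 per gene at or above the median level, ran from -0.96 to -0.35, with 19 to 343 HNF4A reads and 29 to 450 IgG reads, and only 11 had an interval wholly below equality. The lowest was IFT52, a subunit of the cilium's transport machinery (chr20:42218680-42219930), with 23 HNF4A and 44 IgG reads (log2 ratio -0.96, -1.76 to -0.20). Of the 40, 6 were nearest to genes of duplicated or pericentromeric sequence, 2 to DNA repair genes and 2 to S100 genes; these groups hold 88, 16 and 11 of the 5326 regions.

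FANCG, a Fanconi anaemia protein that takes part in repair of crosslinked DNA, held 19 HNF4A and 33 IgG reads (-0.82, -1.72 to 0.03). RAD54B, which acts in recombination, held 30 and 38, and NCAPG2, a condensin subunit, 21 and 33. ROCK1, a kinase that drives actomyosin contraction, had the deepest region of the 40, 343 against 450 (-0.42, -0.62 to -0.21). Its density was 143 HNF4A and 188 IgG reads per kb, against 33.1 and 16.7 over all regions. At high glucose its ratio was 0.09. Another region nearest to ROCK1 was among the deepest of all, with 1576 and 1839 reads. ARPC3, a subunit of the actin-nucleating complex, held 26 and 38, and the myosin light chain gene MYL6B 22 and 32. Of these 6 genes, ROCK1 alone had an interval below equality.

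SCRT1, a transcriptional repressor of neurons, held 47 and 68 reads. MRPS12, of the mitochondrial ribosome, held 29 and 38, HIST2H2AA3, a histone gene with a near-identical copy, 33 and 47, and PATL1, of mRNA decay, 23 and 29. SIK2, a kinase of the AMPK-related family, held 21 and 38 (-0.88, -1.72 to -0.08). TFEC, a relative of the lysosomal transcription factors, had one of the lowest upper limits of all regions, with 113 and 167 reads (-0.59, -0.95 to -0.24).

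Ordering all 5326 regions by the upper limit brought in regions below the median level. A region nearest to the pseudogene CHEK2P2 came first, with 7 HNF4A and 25 IgG reads (log2 ratio -1.86, -3.32 to -0.61). SCAMP5, a membrane protein of secretory vesicles, held 2 and 13 (-2.73, -5.92 to -0.58). SLC32A1, the vesicular transporter of GABA, and SLC30A7, a zinc transporter, each held 3 and 14 (-2.25, -4.69 to -0.41). Of the 30 lowest by this limit, 1 per gene, 24 had an interval wholly below equality, and reads ran from 2 to 15840 for HNF4A and from 11 to 17783 for IgG.

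**Figure D4:**
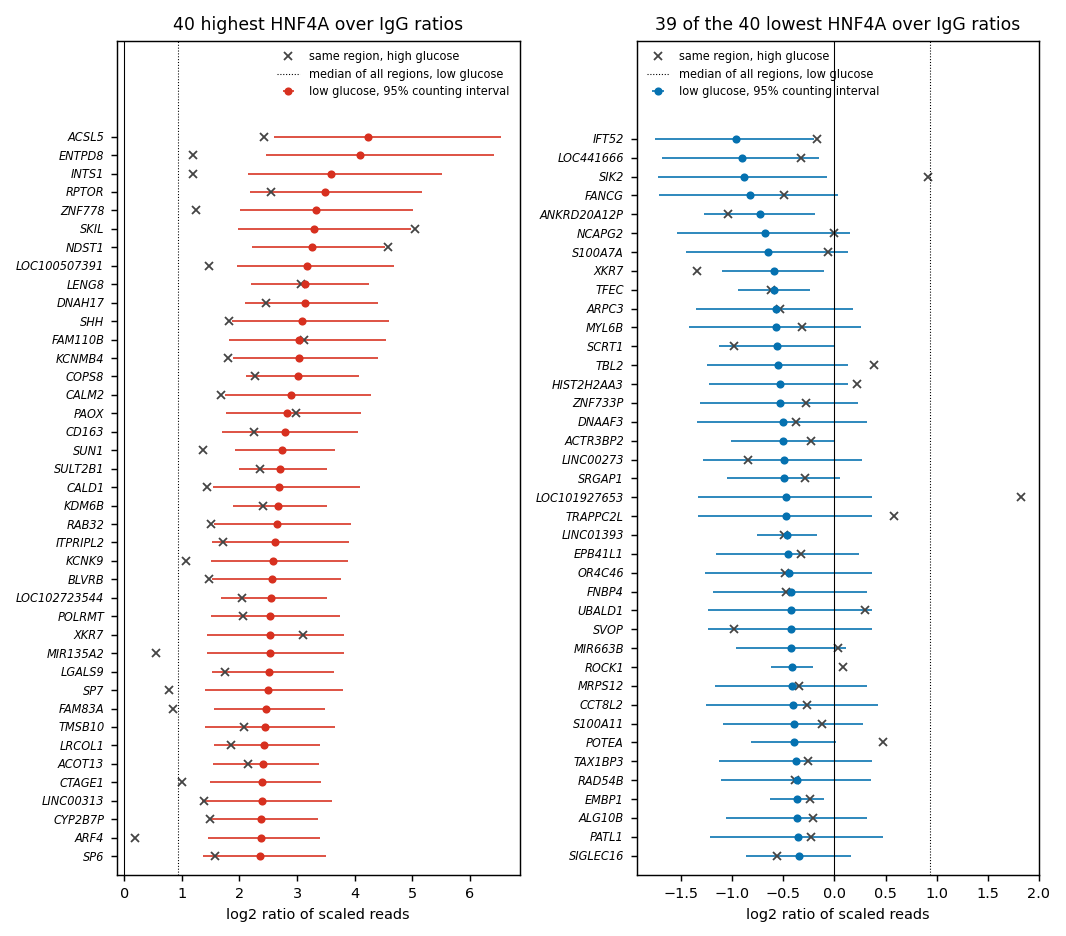
Log2 HNF4A over IgG ratio (x axis) of the 40 highest (left, red) and 39 of the 40 lowest (right, blue) regions at low glucose, 1 per closest gene, with 95% counting intervals; crosses are the same regions at high glucose. All 40 crosses on the left lie above 0, and 30 of the 39 on the right lie below it.

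In the high glucose pair of libraries, which the choice at low glucose did not use, all 40 high regions were again above IgG, 35 of them at least 2-fold, with a median of 1.77. The background there was 41.6% of all regions at least 2-fold above and 15.8% below. Both sets of 40 were drawn from the 2664 regions at or above the median level at low glucose. Of those 2664, 741 were at least 2-fold above IgG at high glucose and 442 below it, with a median of 0.57. SKIL (low 3.30, high 5.04) and NDST1 (low 3.26, high 4.58) were higher at high glucose, while ARF4 (low 2.37, high 0.19) and MIR135A2 (low 2.53, high 0.55) were near equality there. Of the 40 low regions, 30 were again below IgG and 1 was at least 2-fold above, with a median of -0.27. The differences between glucose levels were not tested.

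The deepest regions held similar reads in both libraries. The 53 regions of highest mean level held 23.3% of all HNF4A reads and 35.7% of all IgG reads. Their median log2 ratio was -0.04, none exceeded 0.47, and 33 of the 53 were below IgG. Of the 53, 20 were nearest to genes of duplicated or pericentromeric sequence or lay on unplaced contigs (median -0.12, 13 below IgG), and the other 33 had a median of -0.02 with 20 below. The deepest, nearest to the pseudogene EMBP1, held 15840 HNF4A and 17783 IgG reads. Next came GUSBP4 with 5281 and 5864 and CAV1, which encodes a caveolin, with 4496 and 3795. The 88 regions nearest to the listed genes of duplicated and pericentromeric sequence had a median of -0.11. Of these, 52 were below IgG and 1 was at least 2-fold above, at a median density of 127 HNF4A and 128 IgG reads per kb. With the regions on unplaced contigs added, there were 131 with a median of -0.14, against 0.97 in the other 5195. Because the list was chosen with earlier results of these data known, these contrasts are descriptions only.

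Regions sharing a closest gene were often alike, with exceptions. LOC441666 was closest to 24 regions on chromosome 10, with a median log2 ratio of 0.02 and none at least 2-fold above IgG, and ACTR3BP2 was closest to 15 with a median of -0.22. The 6 regions nearest to CAV2 held 8930 HNF4A and 8865 IgG reads in all, with ratios from -0.06 to 0.03. By contrast, TRIB1, a pseudokinase linked to plasma lipids, had 7 regions with ratios from 0.01 to 2.18, 5 of them at least 2-fold above IgG. PRKAG2, a regulatory subunit of AMPK, had 7 from 0.05 to 1.85, also with 5. The share of all 5326 regions at least 2-fold above IgG was 46.8%, and a difference of these genes from it was not tested.

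XKR7 was the one gene with a region in both sets of 40. Its regions on chromosome 20 lie 18432 bp apart. The first (chr20:30556069-30556867) held 58 HNF4A and 86 IgG reads (log2 ratio -0.59, -1.10 to -0.10). The second (chr20:30575300-30576130) held 47 and 8 (2.53, 1.43 to 3.82). HNF4A reads were thus similar in both, and IgG reads differed. The high glucose pair gave -1.35 and 3.10 for the same regions. In all, 7 genes had 1 region with an interval above equality and another with an interval below it.

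Families of closest genes were compared by the median of their regions. Of the 91 families and lists with a region, 72 were grouped by symbol and 19 by function; 69 had at least 8 regions, and 37 of these had a median above that of all regions. The following therefore names the ends of 69 values, and a median over few regions rests on few reads. The lists were chosen with earlier results of these data known. At the top, the 9 regions of dual-specificity phosphatases, which switch off MAP kinases, had a median log2 ratio of 1.64. None was below IgG, as against 8.51% of all regions. With regions under the median mean level left out, their median was 1.11, against 0.72 for all regions kept. At high glucose it was 1.02, against 0.79 for all regions. DUSP6, the phosphatase of ERK, held 51 HNF4A and 13 IgG reads, and DUSP16 57 and 11. The 8 regions of acyl-CoA synthetases and thioesterases had a median of 1.61. ABC transporters had a median of 1.57, with 12 of 14 regions (85.7%) at least 2-fold above IgG, led among deeper regions by ABCB4, the phospholipid pump of bile canaliculi, with 48 and 10. The TBC1D activators of Rab GTPases had 1.56, with 9 of 11 at least 2-fold. Over all regions the share at least 2-fold above IgG was 46.8%.

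Signalling lists were also above the median of all regions. In the list of RAS, ERK and receptor tyrosine kinase signalling, 22 of 29 regions (75.9%) were at least 2-fold above IgG, with a median of 1.49. None was below IgG, as against 8.51% of all regions. SPRED2, an inhibitor of ERK activation, held 52 HNF4A and 11 IgG reads, and SOS1, the exchange factor of RAS, 67 and 22. A MET region was near equality, with 331 and 320. The TGF-beta and SMAD list had 16 of 23 regions (69.6%) at least 2-fold above IgG and a median of 1.23, and the Wnt and beta-catenin list 20 of 32 (62.5%) and 1.25, against 46.8% and 0.94 over all regions. BCL9L, a coactivator of beta-catenin, held 116 and 29 (1.97, 1.38 to 2.61), whereas its relative BCL9 held 58 and 67.

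Liver lists lay on both sides of the median of all regions. The list of HNF4A target genes of the liver had 15 regions near 12 genes, all above IgG and 10 at least 2-fold, with a median of 1.48. GPT, the alanine aminotransferase, held 141 HNF4A and 36 IgG reads (1.94, 1.41 to 2.51). All 8 regions near hepatocyte secreted proteins and coagulation factors were at least 2-fold above IgG, with a median of 1.44; AHSG, the plasma protein fetuin-A, held 56 and 21. Of 20 regions near genes of fatty acid activation, oxidation and synthesis (median 1.35), 11 (55.0%) were at least 2-fold above, near the 46.8% of all regions. None was below IgG, as against 8.51% of all regions. PPARG, a lipid-sensing nuclear receptor, held 50 and 10, and DGAT1, which makes triglycerides, 102 and 65. Cholesterol and lipoprotein genes had 16 of 24 (66.7%) at least 2-fold above IgG and a median of 1.32, but with 1 value per gene the median was 1.004, close to the 0.96 of all genes. APOE, a ligand of lipoprotein receptors, was near equality with 32 and 30. Amino acid and urea metabolism, with 2 of 9 regions at least 2-fold above IgG and a median of 0.72, lay below the median of all regions. Cytochrome P450 genes, with 5 of 12 (41.7%) at least 2-fold and a median of 0.89, were near the 46.8% and 0.94 of all regions. HNF4A itself was closest to 1 region, with 35 and 17 reads (1.02, 0.14 to 1.94).

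Glucose and nutrient-sensing lists had medians below that of all regions, 0.94, but not under every setting. Genes of glycolysis, gluconeogenesis and glycogen had a median of 0.79 over 20 regions, with MLXIPL, the carbohydrate-response factor, at 52 HNF4A and 11 IgG reads and LDHA, lactate dehydrogenase, at 54 and 13. The list of AMPK subunits and the kinases around them had 0.76 over 24 regions. It ran from CAMKK2, a kinase that activates AMPK, with 132 and 31 (2.06, 1.49 to 2.68), down to SIK2. The mTOR list had 0.76 over 25, with RPTOR, a subunit that recruits substrates to mTOR, at 57 and 5 and TFEC at its low end. TFEC was closest to 6 of the 25, with a median of 0.16 and none at least 2-fold above IgG. With regions under the median mean level left out, all those kept had a median of 0.72; the glycolysis and AMPK lists were both at 0.76, slightly above it, and the mTOR list at 0.53. With 1 value per gene, against 0.96 for all genes, the AMPK list was at 0.42, the glycolysis list at 0.76 and the mTOR list at 0.85.

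Zinc finger (ZNF) genes had a median of 0.69, with 40 of 136 regions (29.4%) at least 2-fold above IgG and 19 (14.0%) below it. Over all regions these shares were 46.8% and 8.51%, which are also the background for the groups that follow. The pseudogene ZNF733P was nearest to 9 of the 136, and 7 of these were below IgG. TRIM ubiquitin ligases had 0.60, RNA polymerase II, Integrator and Mediator genes 0.57 (0.94 with regions under the median level left out, against 0.72 for all regions kept), Mediator subunits alone 0.48, and S100 calcium-binding proteins 0.43 in regions with a median length of 1891 bp. In the DNA repair list 2 of 16 regions (12.5%) were at least 2-fold above IgG, with a median of 0.43. NBN, a sensor of DNA breaks, held 59 HNF4A and 33 IgG reads. Ankyrin repeat domain genes had 0.34 over 28 regions, with 7 at least 2-fold above IgG and 9 (32.1%) below it. The pseudogene ANKRD26P1 alone was nearest to 14 of the 28, and 8 of these were below IgG. With 1 value per gene the family median was 0.87. Neuron genes had 0.20 over 12 regions. Olfactory receptors had -0.11 over 14, of which 7 were nearest to OR4C46; with the reads of each gene summed, the median was 1.06. By gene type, regions nearest to protein-coding genes had a median of 0.93, long noncoding RNA genes 1.07, microRNA genes 1.13 and pseudogenes 0.17. The 93 pseudogene regions outside the duplicated list and the unplaced contigs had a median of 0.69.

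**Figure D5:**
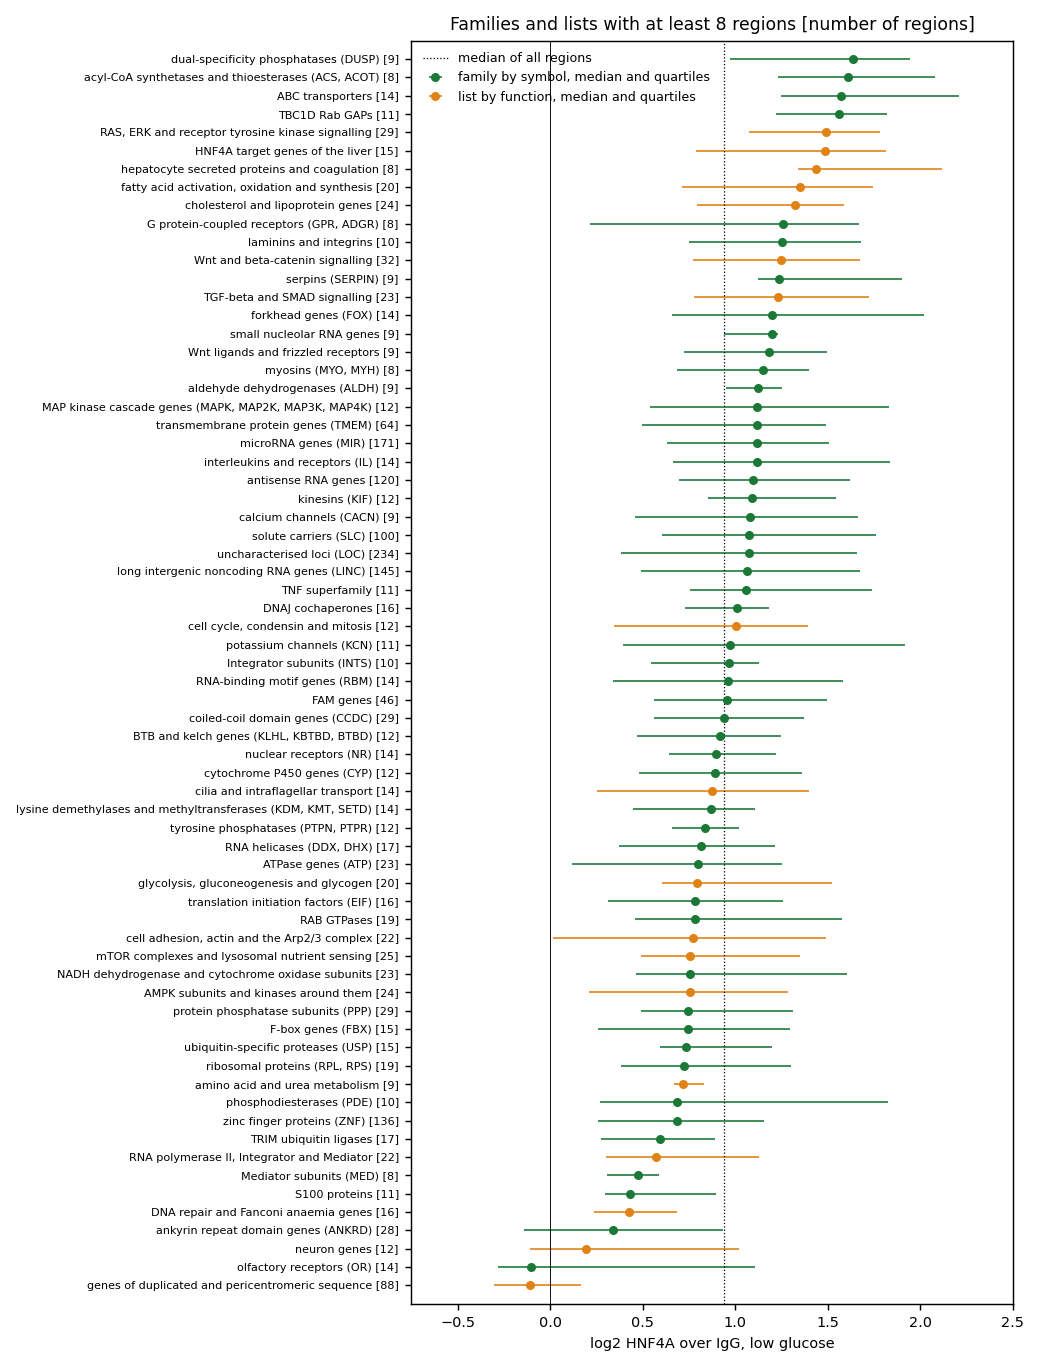
Median log2 HNF4A over IgG ratio with quartiles (x axis) for 68 of the 69 families (green) and lists (orange) with at least 8 regions; the number of regions is in brackets and the dotted line is the median of all regions, 0.94. Dual-specificity phosphatases are highest at 1.64, and 2 groups, olfactory receptors and genes of duplicated sequence, have medians below 0.

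High and low groups also differed in median IgG density. It was 10.7 reads per kb in the ABC transporter regions, 11.6 in those of dual-specificity phosphatases and 12.5 in those of HNF4A targets, against 16.7 over all regions. It was 20.0 near ZNF genes, 24.8 near DNA repair genes and 27.4 near S100 genes. HNF4A density differed less: 34.7, 36.4 and 29.8 reads per kb in the first set and 35.3, 31.6 and 44.5 in the second, against 33.1 over all regions. The part of local background in the family medians was not tested. Of 10 hepatocyte markers 2 were closest to a region, among them APOA1 (28 HNF4A and 2 IgG reads), and of 10 markers of other cells 0 were. Closest genes numbered 4319 in all, and a binding table does not show which genes are expressed, so these counts cannot check the labelled cell type.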

How the data were processed

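The 4 ChIP-seq libraries of HCCLM3 cells were compared, 1 per group, and the members and lists described were chosen with earlier results of these data known. The submitters' processing notes name Bowtie 1.1.2, bcl2fastq, HOMER, DiffBind and MACS, and hg19 as the build; no source used here gives settings or how regions were chosen. The deposited tables of the authors hold log2 levels per region, a log2 fold and a p-value with its false discovery rate; per the file headers these stand beside the closest gene. The 2 level columns are headed 4 and NC and were read as HNF4A and IgG; the file does not spell this out. Unlogged levels fell on whole steps of a fixed size in each library (100% of values within 0.01), and counting the steps gave the reads; IgG had 0.982 times the relative size of HNF4A at low glucose. Ratios equal the authors' fold. Intervals are exact (Clopper-Pearson, 95%). With 1 library per group no p-value was computed. Starts were taken as 0-based and are printed 1-based.

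Named genes are the 40 highest and 40 lowest ratios, 1 per gene at or above the median level, the 30 most extreme by each interval limit over all regions, the 10 deepest, the 10 longest, up to 4 high and 2 low members of each family or list, and HNF4A; not all are reported, and some items are not reported here. Genes of the motif search fall outside this rule. A motif search in the regions themselves had been planned and was replaced by start windows of the closest genes, since no hg19 sequence was used. A closest gene was missing for 33 regions and was a converted date for 7. Biotypes and start windows are from RefSeq (GRCh38.p14), matched by symbol or synonym for 4187 of 4319 genes. Alternatives were other scalings, a pseudocount of 1 read, a level filter, interval thresholds and 1 value per gene. Computation used Python 3.11.15, pandas 2.3.3, numpy 2.4.6 and scipy 1.17.1, and the interval and read recovery were tested on simulated data.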

Additional observations from a re-analysis of the deposited data

Results flagged for a closer look

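In 9 of the named regions the counting interval lay on one side of equality at low glucose and on the other side at high glucose; the difference itself was not tested, and regions whose intervals include equality were not considered. HNF4A was below IgG at low glucose and above it at high glucose near SIK2 (log2 ratio -0.88 at low, 0.91 at high; 21 HNF4A and 38 IgG reads at low, 73 and 35 at high), ACTR3BP2 (-0.34 and 0.37) and LOC101927151 (-0.14 and 0.08). It was above IgG at low glucose and below it at high glucose near RNA5-8S5 (0.16 and -0.51), NBPF1 (0.73 and -0.63), SYT7 (0.81 and -1.19), ENTPD6 (0.95 and -0.57), PRKCI (1.36 and -0.95) and DNAH5 (2.67 and -3.47). DNAH5 rests on 13 HNF4A and 2 IgG reads at low glucose and on 1 and 10 at high glucose. Over all 5326 regions, 18 had an interval above equality at low glucose and below it at high glucose, and 3 the reverse.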

How the results depend on the processing

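The count of regions at least 2-fold above IgG, 2494 as reported, was 712 when ratios were centred on the median of all regions, 883 at or above the median level and 466 when the lower interval limit had to reach 2-fold. The count below IgG, 453 as reported, was 2663 when centred, 251 at or above the median level and 38 when the upper limit had to be below 0. The median log2 ratio of all regions, 0.94, was 0.72 at or above the median level and 0.90 with 1 read added to each side. The authors' p under 0.01 left 23 regions of 162. Fewer regions enter the level filter by construction. Reads without library scaling, and leaving out duplicated and unplaced sequence (added after seeing the data), kept both counts within 1.5 times. Matches in the motif search, 43 in upper and 22 in lower regions, were 16 and 5 for CAAAGTCCA alone; the lower count was 7 with the first listed start and 13 with 1 region per gene. Of 69 families and lists, 16 changed side of the all-region median with the level filter, 8 with 1 value per gene and 2 with the added read. Olfactory receptors turned from -0.11 to 1.06 with 1 value per gene, which weights OR4C46 as 1 gene. No paired analysis was possible because each group is 1 library. Regions with few reads have wide intervals, so a high ratio on 1 to 3 IgG reads is known only to within several log2 units.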
